A study of Mus musculus with 8 samples.

Results

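Fc gamma receptors are the surface proteins by which immune cells bind the constant part of IgG antibodies. The members described here are all probe sets of the deposited table that the platform annotation assigns to Fcgr1, Fcgr2b, Fcgr3, Fcgr4 or Fcer1g alone, and they number 9 probe sets of 5 genes, out of 30506 probe sets in all, or 5 of the 13307 genes that have a probe set of their own. Fcgr2b has 4 probe sets, Fcgr1 has 2, and Fcgr3, Fcgr4 and Fcer1g have 1 each. They were chosen by their measured signal in these same lines (Fcgr2b differed strongly between the genotypes, the others less), so the genotype differences of all members are given as a description, with no test.

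The cells were primary embryonic fibroblasts of the mouse, that is, cultures started from embryo tissue and never immortalised. Independent lines of wild-type genotype (WT), 4 in number, were set against 4 lines of genotype Cry1-/-|Cry2-/- (Cry DKO), which lack both cryptochromes, the repressors of the circadian clock, and each line was hybridised to 1 Affymetrix array. All lines shared the near-C57BL/6J background (more than 7 backcrosses, starting with BL6/129 mice), a medium with 10% serum, 3% oxygen and unsynchronised growth, and none was treated. The sources used here do not give the embryos' age or how non-fibroblast cells were removed. Values are on a log2 scale whose base is inferred from their range (0.0675 to 14.3), so each fold rests on that inference, and a difference is always Cry DKO minus WT.

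In textbook terms the family has 2 arms. Fcgr1, the high-affinity receptor, and Fcgr3 and Fcgr4, receptors of lower affinity, activate cells through Fcer1g, the shared gamma chain. Fcer1g carries an ITAM, a tyrosine motif that recruits the kinase Syk once phosphorylated. Fcgr2b is the inhibitory receptor: its own tail carries an ITIM, which recruits the lipid phosphatase SHIP-1, the product of Inpp5d, and dampens the activating signal. Macrophages carry both arms, B cells carry Fcgr2b as their sole classical Fc gamma receptor, and fibroblasts are not a usual site of any of them.

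The regions around the starts of the receptor genes are shown because the members did not move alike. The RefSeq promoter windows (build GRCm38.p6) run from 250 bases before to 50 bases after an annotated start. All 5 genes were matched, Fcgr3 with 2 overlapping windows. On chromosome 1 the window of Fcgr2b is chr1:170976022-170976321 (minus strand), the first one of Fcgr3 is chr1:171059354-171059653 (minus strand) and that of Fcgr4 is chr1:171018676-171018975 (plus strand). The window of Fcgr1 is chr3:96293920-96294219 (minus strand). Each is printed 5′ to 3′, and capitals mark matches to GAGGAA, the core of the PU box bound by the macrophage factor PU.1 (the product of Spi1), or to TTCNNNGAA, the GAS element bound by interferon-activated STAT factors, on either strand.
Fcgr2b: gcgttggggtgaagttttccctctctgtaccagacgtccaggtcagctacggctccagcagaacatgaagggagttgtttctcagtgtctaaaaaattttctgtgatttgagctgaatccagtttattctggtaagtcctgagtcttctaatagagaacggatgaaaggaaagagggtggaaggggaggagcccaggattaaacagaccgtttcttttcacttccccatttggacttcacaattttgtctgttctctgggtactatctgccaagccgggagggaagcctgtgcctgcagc
Fcgr3: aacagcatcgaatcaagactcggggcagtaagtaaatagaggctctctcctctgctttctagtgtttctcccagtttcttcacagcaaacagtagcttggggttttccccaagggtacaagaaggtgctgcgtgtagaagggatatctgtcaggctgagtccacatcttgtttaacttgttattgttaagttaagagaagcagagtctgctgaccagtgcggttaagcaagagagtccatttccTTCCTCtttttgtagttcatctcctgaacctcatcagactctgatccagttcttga
Fcgr4: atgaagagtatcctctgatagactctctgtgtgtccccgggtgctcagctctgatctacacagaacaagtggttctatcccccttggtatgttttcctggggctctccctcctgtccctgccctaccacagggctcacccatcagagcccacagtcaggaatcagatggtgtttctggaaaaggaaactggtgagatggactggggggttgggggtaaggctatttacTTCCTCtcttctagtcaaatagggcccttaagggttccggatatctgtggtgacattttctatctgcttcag
Fcgr1: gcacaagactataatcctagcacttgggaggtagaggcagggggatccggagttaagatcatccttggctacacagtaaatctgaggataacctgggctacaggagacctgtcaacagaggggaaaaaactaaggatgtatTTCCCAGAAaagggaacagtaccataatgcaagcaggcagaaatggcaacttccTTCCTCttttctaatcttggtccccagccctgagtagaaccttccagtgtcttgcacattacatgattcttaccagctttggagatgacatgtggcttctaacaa

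The 3 activating receptors each had 1 match to GAGGAA, a motif found in 28.3% of 32851 windows of the same length. It began 6 bases before the start in Fcgr3, 22 bases before in Fcgr4 and 55 bases before in Fcgr1. Around it, Fcgr3 and Fcgr1 shared the run TTCCTTCCTCTTTT of 14 bases, which 5 of the 32851 windows hold on either strand: the 2 of Fcgr3 and 1 each of Fcgr1, Dock2 and Entpd1. Fcgr1 also had 1 match to TTCNNNGAA (TTCCCAGAA), a motif found in 8.3% of windows. The windows of Fcgr2b and Fcer1g held neither motif. Read 5′ to 3′ only, with the first window of Fcgr3, no run over 9 bases was shared between Fcgr2b and any other member. The opposite strand was not compared for such runs. The clock's E-box CACGTG, found in 7.15% of all windows, and the GAS-like element of STAT6, which has 1 more free base between TTC and GAA and was found in 6.95%, were in no member's window. A match is a description of letters in this window, and the letters missing from it say nothing about the factor.

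Fcgr2b was higher in every Cry DKO line than in any WT line, on each of its 4 probe sets. On the probe set of highest mean signal (1435477_s_at), which represents the gene here, the 4 WT lines had 6.13, 5.88, 5.74 and 7.80 and the 4 Cry DKO lines had 9.69, 9.58, 9.02 and 9.43, in the order of their replicate numbers. WT line 4 stood above the other WT lines and 1.21 below the lowest Cry DKO line, while the Cry DKO lines lay close together. The means were 6.39 ± 0.96 (SD, n = 4) and 9.43 ± 0.29 (SD, n = 4), a difference of 3.04 (SE 0.36), or 8.22-fold. WT lines 2 and 3 lay under the dim floor of 6.06 used here, WT line 1 lay just above it, and no detection calls were used, so the fold is one of array signals and not an exact fold of RNA. On this probe set the difference ranked 1 among the 9511 genes compared, with the next gene at 2.95, which is above the differences on the other 3 probe sets.

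The other Fcgr2b probe sets gave the same order of genotypes and different sizes. On 1451941_a_at the WT lines had 5.32, 5.49, 5.04 and 6.72 and the Cry DKO lines 8.61, 8.82, 8.20 and 8.69, a difference of 2.94 (SE 0.29). On 1455332_x_at the WT lines had 5.61, 5.79, 5.17 and 7.09 and the Cry DKO lines 8.77, 8.68, 7.70 and 8.39, a difference of 2.48 (SE 0.35). The smallest difference, 1.61 (SE 0.20), came from 1435476_a_at, where the WT lines had 6.53, 6.85, 7.04 and 7.52 and the Cry DKO lines 8.71, 8.94, 8.11 and 8.63. Line 4 was the highest WT line on each of the 4 probe sets and line 3 the lowest Cry DKO line. Held fixed while each line in turn was left out, the probe sets gave 2.82 to 3.51, 2.74 to 3.30, 2.23 to 2.87 and 1.46 to 1.79, in the order described, and each was highest without WT line 4. Without Cry DKO line 1 another probe set had the highest mean, 1435476_a_at, and the gene's difference was then 1.58.

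In Affymetrix naming, _s_at marks a probe set that can match transcripts of several genes, _x_at one with probes that may bind unrelated sequence, and _a_at one that matches several transcripts of 1 gene. Fcgr2b and Fcgr3 are close relatives in their antibody-binding part, and the sources do not say where the probes lie. Binding of Fcgr3 RNA to Fcgr2b probes was not tested. The lines with the highest Fcgr3 signal within each genotype were WT line 1 and Cry DKO line 1. For Fcgr2b, WT line 1 was the next below line 4 on 1435477_s_at, lay between lines 2 and 3 on 1451941_a_at and 1455332_x_at, and was the lowest WT line on 1435476_a_at. Cry DKO line 1 was the highest Cry DKO line on 1435477_s_at and 1455332_x_at, and Cry DKO line 2 on the other 2.

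**Figure D1:**
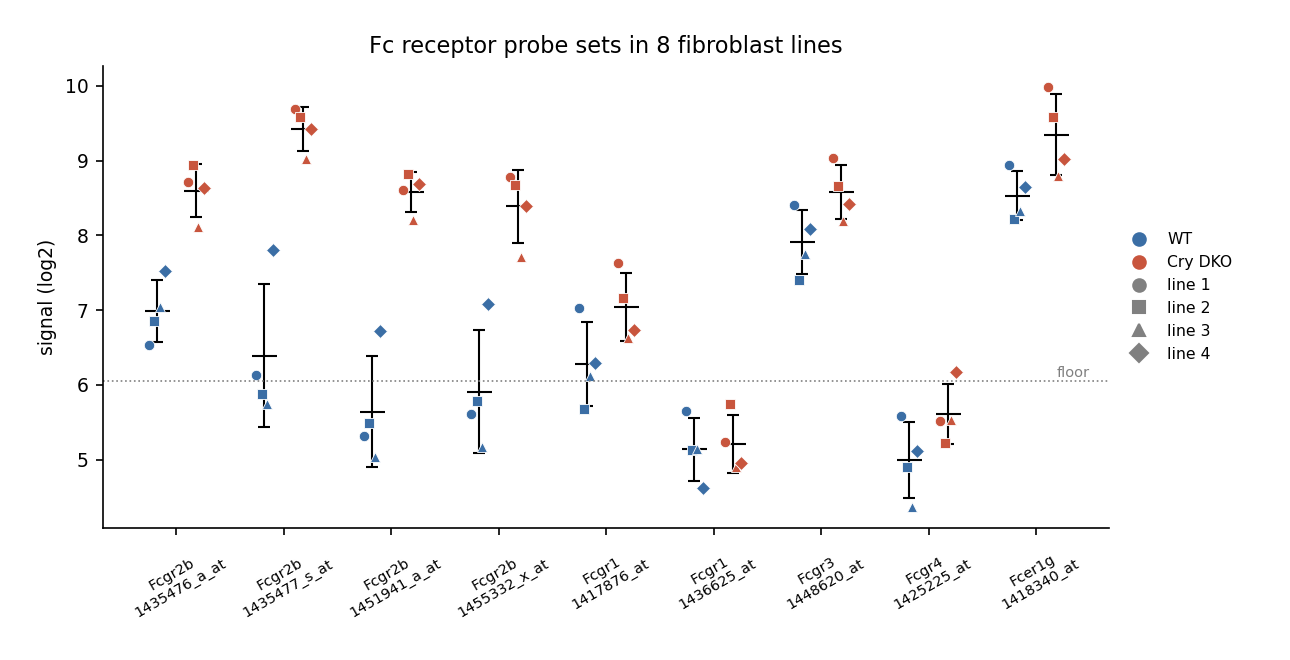
Log2 signal of the 9 probe sets (x axis) in the 8 lines; marker shape gives the line number, colour the genotype, horizontal bars and whiskers the mean and SD of 4 lines, and the dotted line the floor of 6.06. The groups are separate for the 4 Fcgr2b probe sets and overlap for the other 5.

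The activating receptors and the gamma chain were higher on average in Cry DKO lines, by less than 2-fold, and their groups overlapped. Fcer1g had 8.93, 8.22, 8.32 and 8.65 in the WT lines and 9.98, 9.59, 8.79 and 9.02 in the Cry DKO lines, a difference of 0.81 (SE 0.23), or 1.76-fold. Cry DKO line 3 lay 0.14 below WT line 1, and the other Cry DKO lines lay above all WT lines.

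Fcgr3, the partner of the gamma chain on macrophages and NK cells, had 8.40, 7.40, 7.75 and 8.09 in the WT lines and 9.03, 8.66, 8.19 and 8.42 in the Cry DKO lines, a difference of 0.67 (SE 0.21). Fcgr1 on the probe set 1417876_at had 7.03, 5.68, 6.12 and 6.30 in the WT lines and 7.63, 7.17, 6.63 and 6.73 in the Cry DKO lines, a difference of 0.76 (SE 0.27). WT line 1 lay above Cry DKO line 3 in both genes, and for Fcgr1 above Cry DKO line 4 as well.

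The remaining probe sets were dim, with means over all lines under the floor of 6.06, the 40th percentile of all listed probe sets. The second Fcgr1 probe set (1436625_at) ran from 4.63 to 5.66 in the WT lines and from 4.90 to 5.74 in the others. Its difference was 0.07 (SE 0.26) and did not repeat the difference of the first. Fcgr4, an activating receptor of mouse myeloid cells, had 5.58, 4.90, 4.37 and 5.12 in the WT lines and 5.51, 5.22, 5.53 and 6.17 in the Cry DKO lines, a difference of 0.62 (SE 0.28). Among the Cry DKO lines Fcgr4 was highest in line 4 and lowest in line 2, unlike the other receptors, and at this signal the precision is low.

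As counts, 4 of the 5 genes passed the filter on dim signal, Fcgr4 being the exception, and 1 of those 4, Fcgr2b, passed an adjusted p of 0.05 in limma, where 9.18% of the 9511 genes passed. With every probe set of a single gene fitted and no filter, 4 of the 9 member probe sets passed, all of Fcgr2b, where 3.99% of 24838 passed (2.18% as higher). The lowest Cry DKO line lay above the highest WT line for the same 4, against 5.99% of all these probe sets. Without WT line 1, 3 member genes passed, where 5.18% of all genes did, and without Cry DKO line 3, 2 passed, where 5.99% did. The choice of the genes used this contrast, so nothing is read from these counts. The median difference of all genes compared was -0.01.

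Fibroblast cultures can hold macrophages, and the receptors were set beside 24 macrophage markers with signal above the floor, none of them an Fc receptor. The mean of these markers was 8.55, 7.94, 8.26 and 8.46 in the WT lines and 9.50, 9.05, 8.54 and 8.83 in the Cry DKO lines, a difference of 0.68 (SE 0.24). WT line 1 was the highest WT line for 15 of the 24 markers, WT line 4 for 8, and Cry DKO line 1 the highest Cry DKO line for 22. In bulk RNA, fewer cells of a type and less RNA per cell cannot be told apart.

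Fcgr1, Fcgr3 and Fcer1g followed this order exactly: within WT they ran line 1, 4, 3, 2 from high to low, and within Cry DKO line 1, 2, 4, 3, as the marker mean did. Fcgr2b had the markers' order within Cry DKO, but within WT it ran line 4, 1, 2, 3. WT line 4 exceeded WT line 1 for Fcgr2b by 1.67, whereas the marker mean of WT line 4 was the lower of the pair. Cry DKO line 3 and WT line 1 had nearly the same marker mean, 8.54 and 8.55, and Fcgr2b was 9.02 in the former and 6.13 in the latter. In the same pair of lines Fcer1g was 8.79 and 8.93, Fcgr3 8.19 and 8.40, and Fcgr1 6.63 and 7.03. WT line 4 also had a marker mean close to theirs, 8.46, and its Fcgr2b was 7.80. On 1435476_a_at Fcgr2b was 8.11 in Cry DKO line 3, 6.53 in WT line 1 and 7.52 in WT line 4.

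**Figure D2:**
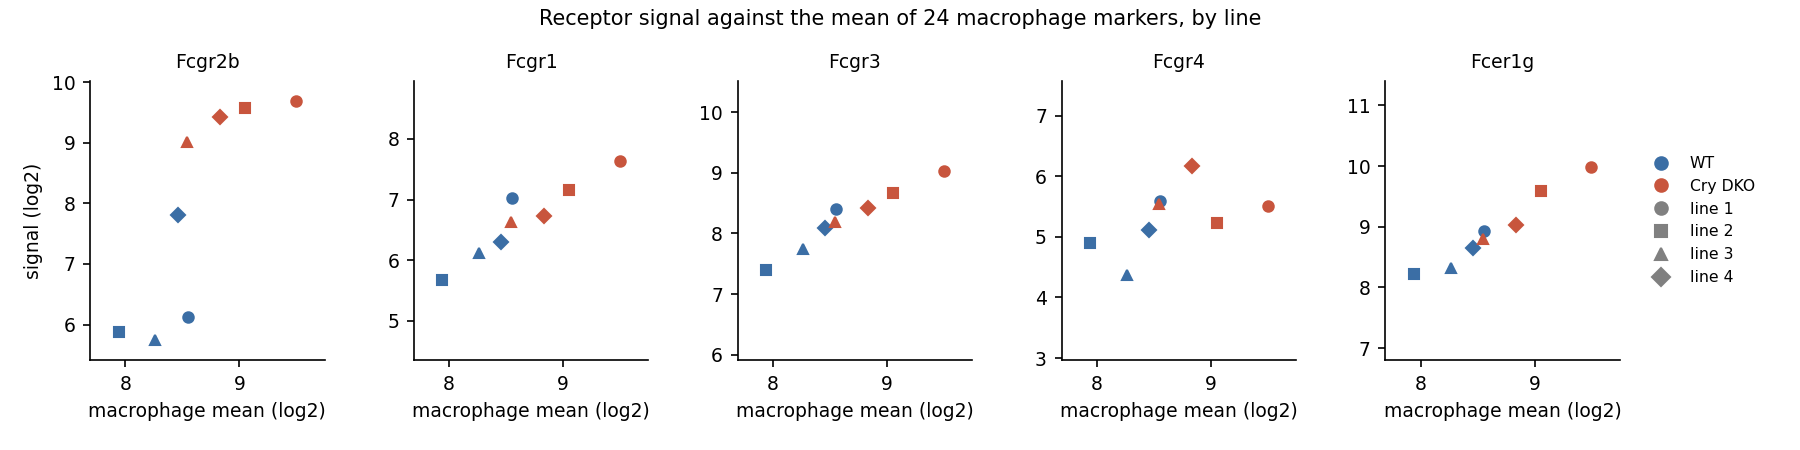
Log2 signal of each gene's brightest probe set (y axis, each panel spanning the same number of log2 units) against the mean log2 signal of the macrophage markers (x axis), 1 point per line. Fcgr1, Fcgr3 and Fcer1g lie along 1 course in both genotypes, while the Fcgr2b values of Cry DKO lines (9.02 to 9.69) lie above those of WT lines (5.74 to 7.80) also where the marker means meet.

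The marker mean was also subtracted from each receptor within each line, which assumes that both move by the same amount. The fitted slopes on the marker mean were 1.10 (SE 0.17) for Fcgr3, 1.24 (SE 0.17) for Fcer1g and 1.35 (SE 0.28) for Fcgr1. For Fcgr2b the slope was 0.99 (SE 0.81) and for Fcgr4 0.14 (SE 0.59), too imprecise to show whether the assumption holds for them. Only the change of such a value between lines can be read, since probe sets differ in brightness. Fcgr3 minus the marker mean averaged -0.40 ± 0.18 (SD, n = 4) over the WT lines and -0.41 ± 0.05 (SD, n = 4) over the Cry DKO lines. These differ by -0.01 (SE 0.09). For Fcer1g the difference was 0.14 (SE 0.11), for Fcgr1 0.08 (SE 0.18) and for Fcgr4 -0.06 (SE 0.38). The genotypes overlapped in all 4 of these values.

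For Fcgr2b the value was -2.42, -2.06, -2.52 and -0.65 in the WT lines and 0.19, 0.52, 0.47 and 0.59 in the Cry DKO lines. On this probe set, 1435477_s_at, the groups did not overlap, and the difference was 2.36 (SE 0.44), or 5.14-fold. The other Fcgr2b probe sets were put through neither the subtraction nor the covariate fit that follows. Their differences without either were smaller, down to 1.61 (SE 0.20) on 1435476_a_at. With the marker mean as a covariate in place of the subtraction, the difference was 2.37 (SE 0.73) for Fcgr2b, -0.03 (SE 0.15) for Fcer1g, -0.08 (SE 0.15) for Fcgr3, -0.16 (SE 0.26) for Fcgr1 and 0.52 (SE 0.53) for Fcgr4. In that fit across all genes 43 of 9511 (0.452%) passed in limma, and none of the 4 members was among them, Fcgr2b included. The covariate itself differs between the genotypes.

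**Figure D3:**
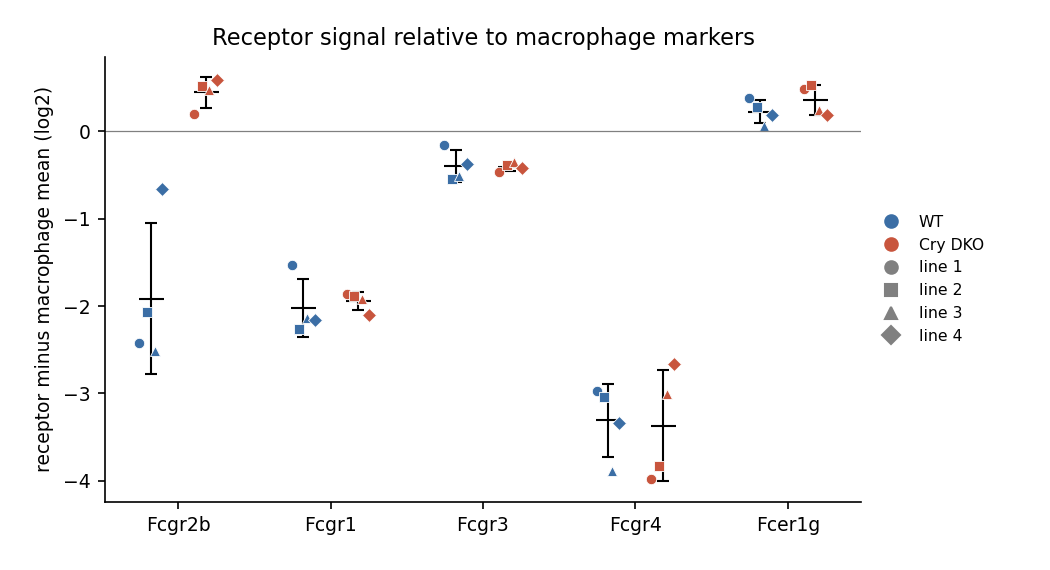
Signal of the brightest probe set of each of the 5 genes minus the mean of the macrophage markers within each line (y axis, log2). Bars and whiskers give the mean and SD of 4 lines per genotype. Fcgr2b lies between -2.52 and -0.65 in WT and between 0.19 and 0.59 in Cry DKO lines; the genotypes overlap for the other 4 genes.

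The inhibitory receptor was also set directly against the activating side. The mean of Fcgr1, Fcgr3, Fcgr4 and Fcer1g was 7.49, 6.55, 6.64 and 7.04 in the WT lines and 8.04, 7.66, 7.29 and 7.59 in the Cry DKO lines, a difference of 0.71 (SE 0.26). Fcgr2b minus this mean was -1.35, -0.67, -0.90 and 0.77 in the WT lines and 1.65, 1.92, 1.73 and 1.84 in the Cry DKO lines. From lowest to highest the WT lines spanned 2.12 and the Cry DKO lines 0.27, and the difference between genotypes was 2.32 (SE 0.46). On the Fcgr2b probe set with the smallest difference it was 0.90 (SE 0.37), and without Cry DKO line 1, where that probe set represents the gene, it was 0.99. Against Fcgr3 alone, the nearest relative, the difference was 2.37 (SE 0.45). With the dim Fcgr4 left out of the mean, the WT lines spanned 2.12 and the Cry DKO lines 0.56, and the difference was 2.29 (SE 0.48).

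Other cells that carry Fc gamma receptors were looked for by their markers. Of 10 B cell markers 4 were in the table used and 2 above the floor: Ebf1, which other tissues also express, had a difference of 0.08 (SE 0.13), and Ighm one of -0.16 (SE 0.12), neither passing in limma (adjusted p = 0.729 and 0.473). None of 8 mast cell markers, 1 of 10 neutrophil markers and 2 of 7 NK cell markers were in the table used, and those 3 were below the floor. Of 10 endothelial markers, 8 were in the table and 2 above the floor. They were Stab1, a scavenger receptor of sinusoidal endothelium and of macrophages, which differed by 0.57 (SE 0.19; adjusted p = 0.0921 in limma), and Egfl7, which differed by -0.29 (SE 0.13; adjusted p = 0.187). Their part in the Fcgr2b difference was not tested. Of 14 fibroblast markers 10 were tested, with a mean between 12.3 and 12.6 in every line, and none passed in limma (3 at an unadjusted p under 0.05). Their median difference was -0.11, and 1 of the 10 had a positive difference. Those 3 were Twist1 (-0.25), Col1a1 (-0.20) and Pdgfrb (-0.17), all lower in Cry DKO lines.

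The signalling partners moved in part. The lists that follow are described by counts beside those of all genes, of which 4.95% rose and 4.23% fell. Of the activating receptors and adaptors besides the Fc receptors, 7 of 9 tested genes rose and none fell, with a median difference of 0.73. Among those 7, Clec5a, Cd300lb, Cd300ld and Trem2 had WT means of 6.04, 5.98, 5.94 and 5.43, under the floor of the filter. They were tested because of their higher Cry DKO values, since the filter takes the mean over all lines. The count with no filter on dim signal was 8 of 11 genes of this list. Clec4d, a C-type lectin that signals through the gamma chain, rose by 1.19 (SE 0.18, limma adjusted p = 0.00312), and Clec5a, a lectin that signals through the related adaptor Tyrobp, rose by 1.10 (SE 0.17, adjusted p = 0.00418). Sirpb1a and Cd300lb, further receptors coupled to ITAM adaptors, rose by 0.73 (SE 0.15) and 0.70 (SE 0.15). Tyrobp itself, chosen after its values were seen, had 9.20, 8.53, 8.93 and 9.25 in the WT lines and 10.1, 9.91, 9.28 and 9.69 in the Cry DKO lines, and it rose by 0.78 (SE 0.19, limma adjusted p = 0.0281). The macrophage markers rose beside them, 12 of 24 with none lower, a median of 0.75 and single values from -0.03 to 0.95, and their part was not tested.

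Leaving out 1 line changed both counts. Among the receptors and adaptors 4 genes rose without WT line 2 or Cry DKO line 2, 5 to 6 without any other line but Cry DKO line 3, and 9 without that line. Among the markers 5 rose without WT line 2 or WT line 3, 6 without Cry DKO line 2, 8 without Cry DKO line 1 or line 4, 10 without WT line 1 or line 4, and 17 without Cry DKO line 3. Clec4d, Clec5a, Sirpb1a and Cd300lb passed in all 8 such fits.

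Fitted with the marker mean as covariate, no gene of these activating receptors and adaptors passed in limma, nor did any gene of the ITAM signalling chain or of the 2 inhibitory lists described next. In that fit only 43 of all 9511 genes (0.452%) passed, and the covariate itself differs between the genotypes. The absence of calls in these lists therefore cannot be read as a result about them.

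Behind the receptors, 5 of 14 tested genes of the ITAM signalling chain rose and none fell, with a median of 0.22. Of those 5, Was and Dock2 had WT means of 5.93 and 5.89, under the floor of the filter. The count with no filter on dim signal was 4 of 22 genes of this list. Nckap1l, a regulator of actin in blood cells, rose by 0.76 (SE 0.16, limma adjusted p = 0.0162), the GTPase gene Rac2 by 0.74 (SE 0.17), Was, the Wiskott-Aldrich syndrome gene, by 0.72 (SE 0.18), and Plcg2, a phospholipase downstream of Syk, by 0.60 (SE 0.15). Syk had 7.01, 7.36, 7.28 and 7.36 in the WT lines and 7.90, 7.69, 7.13 and 7.22 in the Cry DKO lines, which differ by 0.23 (SE 0.17; adjusted p = 0.419 in limma) and overlap. The count was 1 without WT line 2, WT line 3 or Cry DKO line 2, 2 without Cry DKO line 1 and 3 without WT line 1 or line 4. Nckap1l passed in all 8 of these fits, while the call of Was ended in 6, that of Plcg2 in 4 and that of Rac2 in 3.

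On the inhibitory side, 2 of 10 phosphatases and docking proteins rose and none fell, with a median of 0.09. Inpp5d, which encodes the phosphatase that Fcgr2b recruits, had 6.24, 6.29, 6.53 and 6.75 in the WT lines and 7.51, 7.41, 7.31 and 7.13 in the Cry DKO lines. It rose by 0.89 (SE 0.14, limma adjusted p = 0.00378), with separate groups, and passed whichever line was left out. Pag1, an adaptor that binds the inhibitory kinase Csk, rose by 0.33 (SE 0.08, adjusted p = 0.0272), a call that ended in 6 of 8 fits without 1 line. The count was 1 without WT line 1, 2 or 3 or Cry DKO line 1 or 2, and 3 without Cry DKO line 3. Dok2 and Ptpn6, a docking protein and a tyrosine phosphatase of blood cells, had differences of 0.51 (SE 0.18) and 0.55 (SE 0.20) that did not pass.

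Of the other receptors with an inhibitory motif, 3 of 5 tested genes rose and none fell, with a median of 0.62. They were Cd72 (0.89, SE 0.15, limma adjusted p = 0.00523), Sirpa (0.62, SE 0.16), the receptor for the signal CD47, and Pilra (0.69, SE 0.19). Cd300lf had a difference of 0.51 (SE 0.18) that did not pass. With no filter on dim signal, 2 of 10 genes of this list passed in limma. Cd72 passed in all 8 fits without 1 line, the call of Sirpa ended in 5 and that of Pilra in 7. The count was 1 without any of the WT lines or Cry DKO line 2, and 2 without Cry DKO line 1 or line 4. Fcgr2b was chosen for its large difference, so its size is not compared with theirs.

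**Figure D4:**
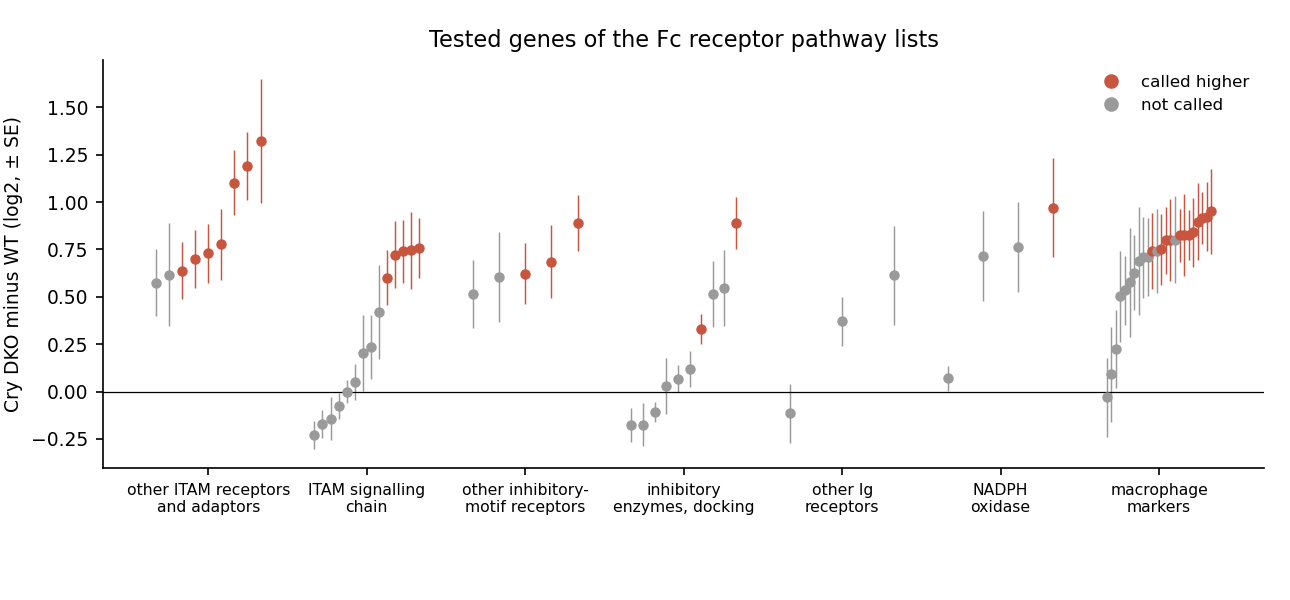
Difference between Cry DKO and WT lines (y axis, log2, with SE) of each tested gene of 7 lists (x axis), sorted within a list; red marks genes that passed an adjusted p of 0.05 in limma as higher. Every red value lies between 0.33 and 1.32, and none passed as lower.

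Receptors for immunoglobulin outside the Fc gamma family could be read only in part, since 3 of 14 listed genes were tested. Of these 3, 0 passed in limma, where 9.18% of all genes did, and 2 had an unadjusted p under 0.05. So few genes say little about the list. Trim21, a cytosolic antibody receptor, differed by 0.37 (SE 0.13; adjusted p = 0.0986 in limma), and Fcrls, an Fc receptor-like gene of microglia and macrophages, by 0.61 (SE 0.26; adjusted p = 0.17). Fcgrt, the neonatal Fc receptor of IgG, which many tissues express, was chosen after its values were seen. It had 8.14, 8.58, 8.66 and 8.35 in the WT lines and 7.95, 8.32, 8.28 and 8.71 in the Cry DKO lines, a difference of -0.12 (SE 0.15), and its groups overlapped.

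Targets and settings of Fc receptor action were mixed. Of 4 tested subunits of the phagocyte NADPH oxidase, which activating receptors switch on, 1 rose: Cybb, by 0.97 (SE 0.26, limma adjusted p = 0.0423), a call that ended without WT lines 2, 3 or 4 or Cry DKO lines 1 or 2. Ncf1, Ncf4 and the broadly expressed Cyba had differences of 0.76 (SE 0.24), 0.72 (SE 0.24) and 0.07 (SE 0.07) that did not pass. IL-4 is known to raise Fcgr2b and interferon gamma to raise Fcgr1 and Fcgr4 in macrophages. Of 5 tested genes raised by IL-4, 2 rose, Arg1 by 0.87 (SE 0.24, adjusted p = 0.0442) and Socs2 by 0.70 (SE 0.20, adjusted p = 0.0491), with calls that each ended in 6 of 8 fits without 1 line. Arg1 was highest in Cry DKO lines 4 and 3 (7.79 and 7.45), whose marker means were the lowest of the Cry DKO lines. Stat6 had a difference of -0.08 (SE 0.08) and Ccl17 one of -0.10 (SE 0.19). Of 2 tested genes raised by interferon gamma, 0 passed in limma and 0 had an unadjusted p under 0.05, with Irf1 at 0.01 (SE 0.07) and Gbp2 at -0.12 (SE 0.12).

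The genes whose pattern over the 8 lines was most like that of Fcgr2b were ranked by Pearson's r, used only to rank since the 2 genotypes form separate clusters. Ms4a7, a membrane protein of macrophages, came first (r = 0.987), followed by Clec4d (0.986), Mthfd1 (0.981), Mtrex (0.980), Nceh1 (0.979), Hivep2 (0.976), Tpm3 (0.973), Fam76a (0.970), Ugdh (0.969) and Myo5a (0.963). WT line 4 was the highest WT line in all 10, as in Fcgr2b, which a ranking by likeness to Fcgr2b favours by itself. Ms4a7 had 8.09, 7.89, 7.93 and 8.58 in the WT lines and 8.98, 9.02, 8.72 and 9.07 in the Cry DKO lines, a rise of 0.82 (SE 0.14, limma adjusted p = 0.00638). Clec4d had 7.09, 6.70, 6.96 and 7.63 in the WT lines and 8.51, 8.29, 7.999 and 8.34 in the Cry DKO lines. Tpm3, at the other end, ran only from 12.5 to 12.6, so likeness of order does not mean likeness of size. With deviations from the genotype means in place of the values, Gid4 (r = 0.977), Mlh3 (0.954), Ms4a7 (0.953), Nceh1 (0.950) and Blvra (0.950) came first.

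For the mean of the other 4 members, the genes most alike over the lines were C5ar1, a complement receptor (r = 0.971), Elac2 (0.969), Cybb (0.968), Ccr1, a chemokine receptor (0.966), and Cd53 (0.965). By deviations from the genotype means they were Ecscr (0.981), Galm (0.971), Sdf4 (0.969), Tnnt2 (0.966) and Ucn2 (0.958). No gene was shared with the lists for Fcgr2b. Among all tested genes, Fcgr1 was the second most like Fcgr3 (r = 0.984) and Fcgr3 the most like Fcgr1, while 706 genes were more like Fcgr2b than Fcgr3 was.

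Fcgr2b, Fcgr4, Fcgr3 and Fcer1g lie in this order on chromosome 1 in the GRCm38.p6 annotation, and Fcgr1 lies on chromosome 3. Of the 27 protein-coding neighbours on chromosome 1 (those between the members and the 10 on each side), 13 were tested, 1 rose and 5 fell. Dusp12 rose by 0.34 (SE 0.08, limma adjusted p = 0.0195). Adamts4, a protease of proteoglycans and the second gene beyond Fcer1g, fell by 1.23 (SE 0.11, adjusted p = 0.000173), Olfml2b by 0.55 (SE 0.15), Nit1 by 0.49 (SE 0.08), Tomm40l by 0.48 (SE 0.08) and B4galt3 by 0.29 (SE 0.07). None of the other genes annotated directly beside a member was tested. The calls of Olfml2b and B4galt3 ended in 6 of 8 fits without 1 line, and that of Dusp12 without WT line 1 or line 3. Around Fcgr1, 6 of 20 neighbours were tested, none rose, and H2ac19 (by 0.61, SE 0.13) and Lix1l (by 0.35, SE 0.10) fell, calls that ended in 1 and 6 of 8 such fits.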

How the data were processed

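Total RNA (5 ug) was labelled with biotin after the standard Affymetrix procedure, per the labels' protocols. The deposited values are log2 signals per probe set, with a base inferred from their range. The submitters' processing notes name GCOS and give no version. The method of summarisation, that of normalisation and the choice of listed probe sets were not given in the sources. Array medians lay between 6.78 and 6.79, so values were used as deposited, and 0 columns were identical. No detection calls were used. Signal and the number of arrays limit the precision.

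Groups and replicate numbers came from the titles. Of 30506 probe sets, 61 controls, 658 with several genes and 4949 unnamed here were left out, and 24838 remained. The gene comparison used limma 3.58.1 under R 4.3.3 (intensity trend, no covariate, Benjamini-Hochberg over 9511 genes, threshold 0.05), on the probe set of highest mean among those at or above 6.06. The filter takes the mean over all lines, so a gene high in 1 genotype can pass through it. Differences and SEs of members came from a fit of all 24838 probe sets, and those of subtracted values or means from the lines. The scripts were checked on simulated data. The lines are independent per the series' design, and p-values rest on the spread between them.

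The members and lists were chosen with earlier results of these data known. Named are all member probe sets, up to 4 genes of smallest p per list with a called gene (2 otherwise), genes ranked by likeness, and called neighbours. Symbols came from the platform annotation and, for 24757 identifiers, assembly GRCm38.p6. Alternatives were a replicate block, normalisations, filters, probe set rules, empirical Bayes settings, array weights, the marker mean as covariate and leaving out each line. Each Fcgr2b probe set in turn, fixed probe sets and the mean without Fcgr4 were added after seeing the data.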

Additional observations from a re-analysis of the deposited data

Results flagged for a closer look

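In 3 of 154 groups of 4 lines examined, 1 line stood apart by Dixon's ratio of its gap to the group's range (above 0.829); chance gives about 1 in 20 groups. None was a member's. WT line 2 was low for Cd300lb, at 5.68 against 6.05 to 6.09 in the other WT lines (ratio 0.906). WT line 4 was low for Stat6, at 9.58 against 9.77 to 9.80 (ratio 0.849), and high for Ugdh, at 10.3258 against 10.137 to 10.1474 (ratio 0.945).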

How the results depend on the processing

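The Fcgr2b difference was positive under each alternative that recomputed it (block, normalisations, mean of probe sets, covariate, lines left out, single probe sets), and so was its excess over the other receptors. Filters, trend and array weights were run for counts of calls alone. It moved by more than the spread between lines on the probe set 1435476_a_at (1.61, excess 0.90) and without Cry DKO replicate 1, where that probe set represents the gene. With 1435477_s_at held fixed, leaving out Cry DKO replicate 1 gave 2.95, and leaving out each line in turn gave 2.82 to 3.51. With the probe set chosen anew in each fit without 1 line, the Fcgr2b difference ranged from 1.58 to 3.51 and the excess from 0.99 to 2.76. The number of genes called ranged from 386 to 684 over these fits, against 873 (493, 472 and 386 without WT replicates 1, 2 and 3, and 551 and 570 without Cry DKO replicates 2 and 3). Called genes ranged from 1 to 5 for the ITAM chain, 1 to 3 for inhibitory enzymes, 1 to 3 for inhibitory receptors, 4 to 9 for activating receptors and 5 to 17 for the macrophage markers. With the macrophage mean as covariate 43 genes were called, the mean of the other receptors was 0.064 (SE 0.21), and 0 genes were called in the ITAM chain, either inhibitory list, the activating receptors or the markers. With the 60th percentile as floor, which tests fewer genes, 1 was called in the ITAM chain, 1 among inhibitory enzymes, 1 among inhibitory receptors and 2 among activating receptors. With no filter, 4 of 22 were called in the ITAM chain and 2 of 10 among inhibitory enzymes. In that fit 2 of 10 inhibitory receptors and 8 of 11 activating receptors were called. Without a trend 1 inhibitory receptor was called. The cause of the other shifts was not tested. With a replicate block, the Fcgr2b difference was 3.04 (SE 0.28), the mean of the other receptors 0.71 (SE 0.13 against 0.26), and 1051 genes were called, 17 macrophage markers among them. Deviations of same-numbered lines correlated with r of 0.360, 0.116, 0.232 and -0.011. Lines 1 to 3 were each most like their own number and line 4 was not, so a shared number was not taken as a pairing, although the values hint at one for 3 of 4 numbers. Normalisation, centring and array weights changed none of the list counts by more than 1.5 times.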
